A study of Bos taurus with 6 samples.

Results

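The genes described here are 42 genes of DNA replication and mitosis, followed in bovine cumulus cells that had or had not received FID. This supplement combines 100 µM forskolin, which activates adenylyl cyclase, 500 µM IBMX, a broad phosphodiesterase inhibitor, and 50 µM dipyridamole, which also inhibits phosphodiesterases. Every probe whose gene symbol in the platform annotation was one of the 42 was taken. Probes were found for 40 of the 42, out of 15213 genes with a probe on the array, and 39 genes on 60 of 66 probes were tested. GINS2, of the GINS complex, and CENPA, the centromeric histone, matched no probe in the annotation used here. CCND1, a D-type cyclin, exceeded background on 1 of 6 arrays in each condition and was not tested.

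The cumulus cells, the somatic cells around the oocyte, came from cumulus-oocyte complexes aspirated from ovaries of slaughtered Holstein cows. FID cells (CC-FID) had FID in the maturation medium, and control cells (CC-6Hr) had none. Medium, estradiol and serum were otherwise shared, and the protocol gives 22 to 24 h of maturation while the control's name carries 6 h, so the culture time behind the comparison is unsettled. Total RNA was amplified in successive T7 rounds and hybridised as 3 biological replicates, numbered 1, 2 and 4, with FID against control on 2 dye-swapped arrays each.

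Replicating cells pass a series of ordered steps. D-type and E-type cyclins with their kinases release E2F factors in G1, the ORC, CDC6 and CDT1 proteins load the MCM2 to MCM7 helicase at origins, and ribonucleotide reductase and thymidylate synthase supply nucleotides to the fork. Cyclins A and B with CDK1 then drive mitosis, in which Aurora and Polo kinases, kinesins and the spindle checkpoint act. Cumulus cells are a granulosa lineage that divides in the growing follicle. The oocyte they enclose resumes meiosis when it matures, with cyclin B, CDK1 and Aurora kinases of its own. Its meiotic stage in FID and in control is not given in the labels.

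Between 51.1% and 84.7% of probes were above background per array in FID and between 58.4% and 86.5% in control, where background was the 95th percentile of 1 array's negative controls. Of 39 tested genes, 36 were above background on 6 of 6 arrays in both conditions and 0 were saturated. The others were TOP2A and TPX2, above it on 5 of 6 arrays in FID, and PLK1, on 5 of 6 in control. The cells carried the markers of their label, since 15 of 18 cumulus and granulosa markers exceeded background on 6 of 6 arrays in each condition. Summed over the 16 tested, their intensity in FID was 1.03, 1.06 and 1.12 times that in control in replicates 1, 2 and 4. That sum leans on the brightest, INHA, INHBA and SERPINE2. They were saturated on 2, 4 and 2 arrays in FID and on 0, 1 and 2 in control. Single markers ranged from GJA1, 2.05-fold lower in FID, to AMH, 3.26-fold higher, and 0 of 16 passed limma's test. Oocyte markers were also measured. Summed over the 26 tested of 28 with a probe, their intensity was 23878, 64411 and 3678 in FID against 9316, 5525 and 3242 in control. That was 2.56, 11.7 and 1.13 times control in replicates 1, 2 and 4. Of the 28, 11 exceeded background on 6 of 6 arrays in FID and 9 in control. In replicate 4 several lay near background, so the sums there are partly background. ZP2 had log2 intensities of 6.52 in FID and 6.37 in control there, and ZAR1 6.63 and 6.51. Of 26 tested oocyte markers 26 had a positive ratio and 0 passed limma's test, with 4 higher at an unadjusted p under 0.05. The oocyte transcription factor NOBOX exceeded background on no array in FID, and SOHLH2, another, on none in control. The tested stromal markers summed to 0.40, 0.38 and 0.68 times control in replicates 1, 2 and 4, a sum that leans on ACTA2. Of these 11 markers 7 had a negative and 4 a positive ratio. As lower, 2 of 11 passed limma's test, against 1.29% of all genes. The tested blood cell markers summed to 1.21, 1.82 and 1.51 times control. The part of either in the values that follow was not tested.

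Over the 39 tested genes, 2 passed limma's test, with p-values adjusted over every tested probe (Benjamini-Hochberg, 0.05). Both were higher in FID, a call made for 1.06% of all 12369 tested genes, and 2.35% of genes and 1.72% of probes passed in either direction. They were MCM5, of the helicase that unwinds DNA, and RRM2, the small subunit of ribonucleotide reductase. No listed gene passed as lower, a call made for 1.29% of all genes, while 3 were lower at an unadjusted p under 0.05 (16.1% of all genes) and 9 were higher (12.5% of all genes). The ratio, log2 of FID over control, was positive for 22 of the 39 and negative for 17, with a median of 0.16 against 0.0077 over all tested genes. A ratio above 1 was seen for 7 of the 39, or 17.9%, against 4.33% of all genes, and 0 lay under -1. In bulk RNA, fewer cells of a type and less RNA per cell cannot be told apart in any of these values.

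**Figure D1:**
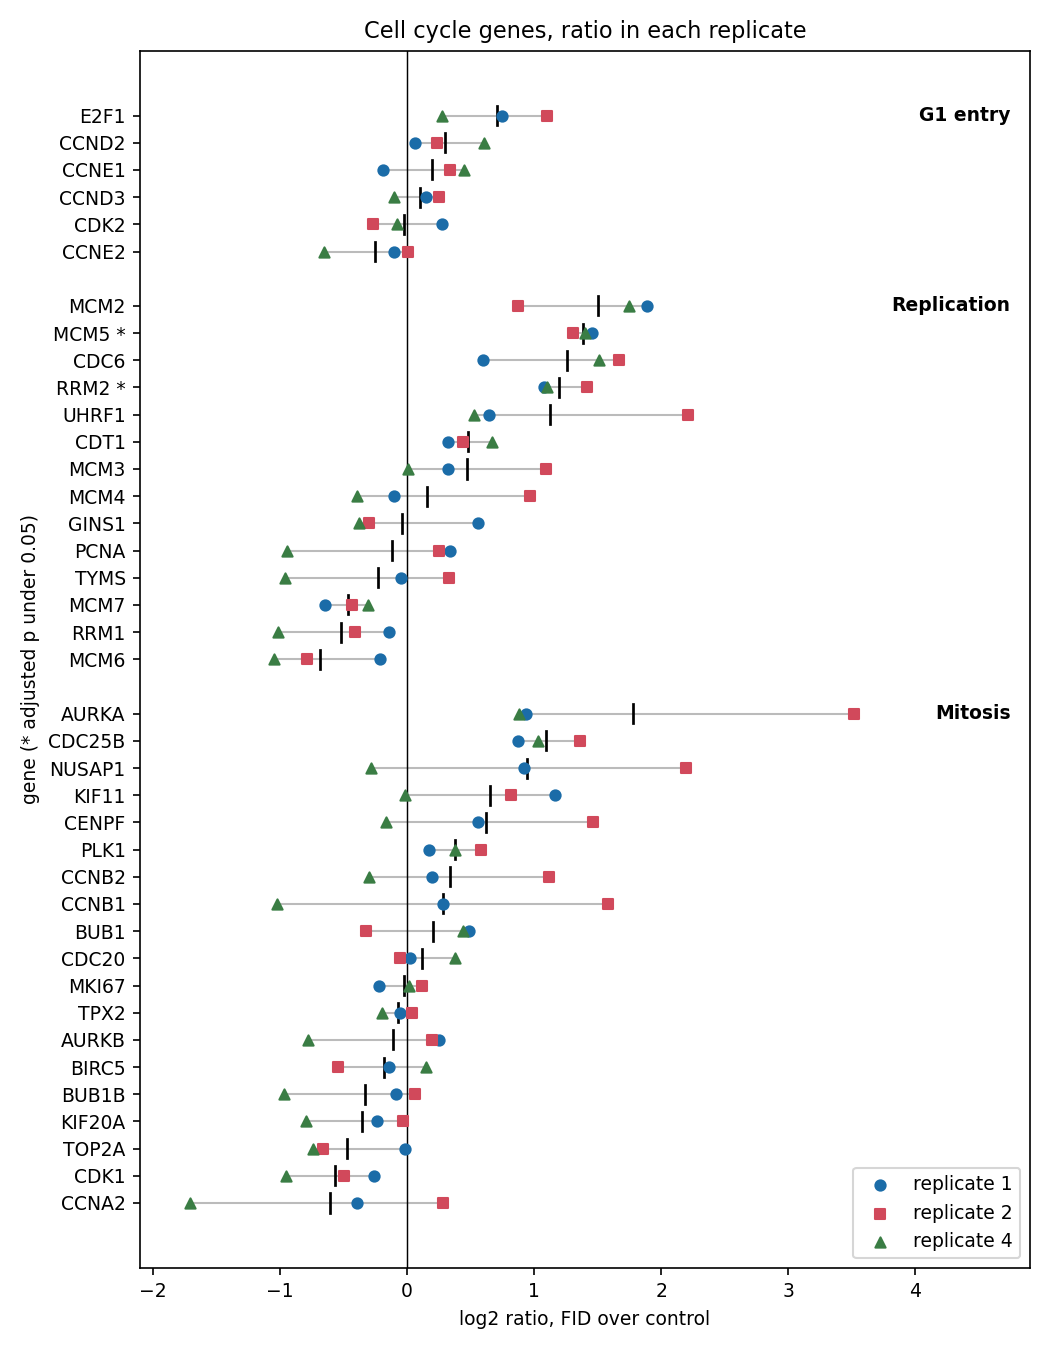
Log2 ratio of FID over control (x axis) of the 39 tested genes (y axis), in the groups G1 entry, replication and mitosis. Points are replicates 1, 2 and 4, each the mean of 2 dye-swapped arrays, the black bar is the fitted mean, and an asterisk marks an adjusted p under 0.05, which MCM5 and RRM2 carry. AURKA in replicate 2, at 3.51, is the point farthest to the right.

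Helicase subunits lay on both sides of 0. MCM5 had log2 intensities of 8.94, 8.92 and 9.08 in FID cells of replicates 1, 2 and 4, against 7.48, 7.61 and 7.68 in control cells. All FID values lay above all control values, and the gap was nearly the same in each replicate. How many of all tested genes separate in this way was not counted, so a lack of overlap, here and below, only describes the values. The log2 ratio of MCM5 was 1.39 ± 0.09 (SE, n = 3), a 2.61-fold rise (adjusted p = 0.0476 in limma), with ratios of 1.45, 1.31 and 1.40, the narrowest spread of the 39 genes (SD 0.073). It was higher in FID on 6 of 6 arrays. The SD is over means of dye-swapped arrays, and the single arrays differed more. They gave 1.18, 1.55 and 1.62 with FID in Cy5 and 1.73, 1.07 and 1.17 with FID in Cy3.

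MCM2, another subunit of the hexamer, had log2 intensities of 12.75, 11.74 and 13.17 in FID, against 10.86, 10.87 and 11.42 in control. The conditions did not overlap, and replicate 2 had the smallest gap. Its ratio of 1.50 ± 0.24 had an adjusted p of 0.072 in limma and so did not pass. That value belongs to the brightest of 3 tested probes. The others gave -0.04 and 0.21, both above background on 5 of 6 arrays in FID.

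MCM6, a subunit of the same ring, had log2 intensities of 9.12, 8.93 and 8.52 in FID, against 9.33, 9.72 and 9.57 in control. Every FID value lay below every control value, by least in replicate 1 and by most in replicate 4. MCM6 had a ratio of -0.68 ± 0.20 (adjusted p = 0.153) and was lower on 6 of 6 arrays, as 15.4% of all genes were. MCM7 had 8.21, 8.27 and 8.20 in FID, against 8.86, 8.71 and 8.52 in control, again with no overlap. Its ratio was -0.47 ± 0.11 (adjusted p = 0.112) and it too was lower on 6 of 6 arrays. MCM3 had ratios of 0.32, 1.09 and 0.003 in replicates 1, 2 and 4, and its fitted 0.47 ± 0.25 was 0.16 without replicate 2. MCM4 had a ratio of 0.16 ± 0.31, with replicates on both sides of 0 (-0.10, 0.97 and -0.40), and -0.25 without replicate 2. Across 18 processing alternatives MCM2 and MCM5 stayed positive and MCM6 and MCM7 stayed negative. Some of these alternatives change only the filter or the test, and there the ratio of a probe could not move. MCM4 turned to -0.058 under median centring. The difference between subunits was not tested.

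Of the listed factors that load the helicase, CDC6 and CDT1, neither passed the test. CDC6, which recruits MCM proteins to the origin, had log2 intensities of 8.71, 9.41 and 9.38 in FID, against 8.11, 7.74 and 7.87 in control. The groups did not overlap, and replicate 1 had the smallest gap. Its ratio was 1.26 ± 0.25 (adjusted p = 0.092, limma), positive on 6 of 6 arrays, while a dimmer second probe gave 0.16. CDT1, the partner of CDC6 in loading, had 7.58, 7.91 and 8.01 in FID, against 7.26, 7.46 and 7.34 in control. All FID values were higher, but most of the ratio of 0.48 ± 0.11 (adjusted p = 0.110) came from arrays with FID in Cy3, which averaged 0.91, against 0.047 on arrays with FID in Cy5. GINS1, a subunit of the GINS complex that travels with the helicase, had a ratio of -0.04 ± 0.23 on the brightest of 3 tested probes. The others gave -0.68 ± 0.15, lower on 6 of 6 arrays, and -0.36 ± 0.13, and neither passed. The first of these was above background on 4 of 6 arrays in FID.

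At the fork and in nucleotide supply, the subunits of ribonucleotide reductase lay on opposite sides of 0. RRM2 had log2 intensities of 11.24, 11.49 and 12.03 in FID, against 10.16, 10.08 and 10.92 in control. The conditions did not overlap. RRM2 rose by 1.20 ± 0.11, or 2.29-fold (adjusted p = 0.0485 in limma), with ratios of 1.08, 1.41 and 1.10. The ratio differed with dye orientation, at 0.70 with FID in Cy5 and 1.70 with FID in Cy3, and was positive on 6 of 6 arrays. Of its other 3 probes, 2 had 1.11 and 0.96 and a dim one, above background on 3 of 6 control arrays, had 0.10.

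RRM1, the large subunit, had log2 intensities of 11.97, 11.53 and 11.90 in FID, against 12.11, 11.94 and 12.92 in control. FID was below control in each replicate, though the groups overlapped. Its ratio was -0.52 ± 0.20 (adjusted p = 0.246), most of it from replicate 4 at -1.02.

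UHRF1, which recruits the maintenance DNA methyltransferase to replicated DNA, had log2 intensities of 9.36, 10.32 and 8.06 in FID, against 8.72, 8.10 and 7.53 in control. Every replicate was higher, replicate 2 by most, and the ratio of 1.13 ± 0.40 (adjusted p = 0.213) became 0.59 without replicate 2. PCNA, the sliding clamp, had a ratio of 0.33 and 0.25 in replicates 1 and 2 and -0.94 in replicate 4. Its 4 probes had fitted ratios between -0.27 and -0.12, and each was lowest in replicate 4. TYMS, thymidylate synthase, had log2 intensities of 10.21, 10.12 and 9.40 in FID, against 10.27, 9.79 and 10.36 in control. These overlapped, the ratios were -0.05, 0.33 and -0.96 (fitted -0.23 ± 0.29), and its other probes gave 0.005 and 0.39.

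**Figure D2:**
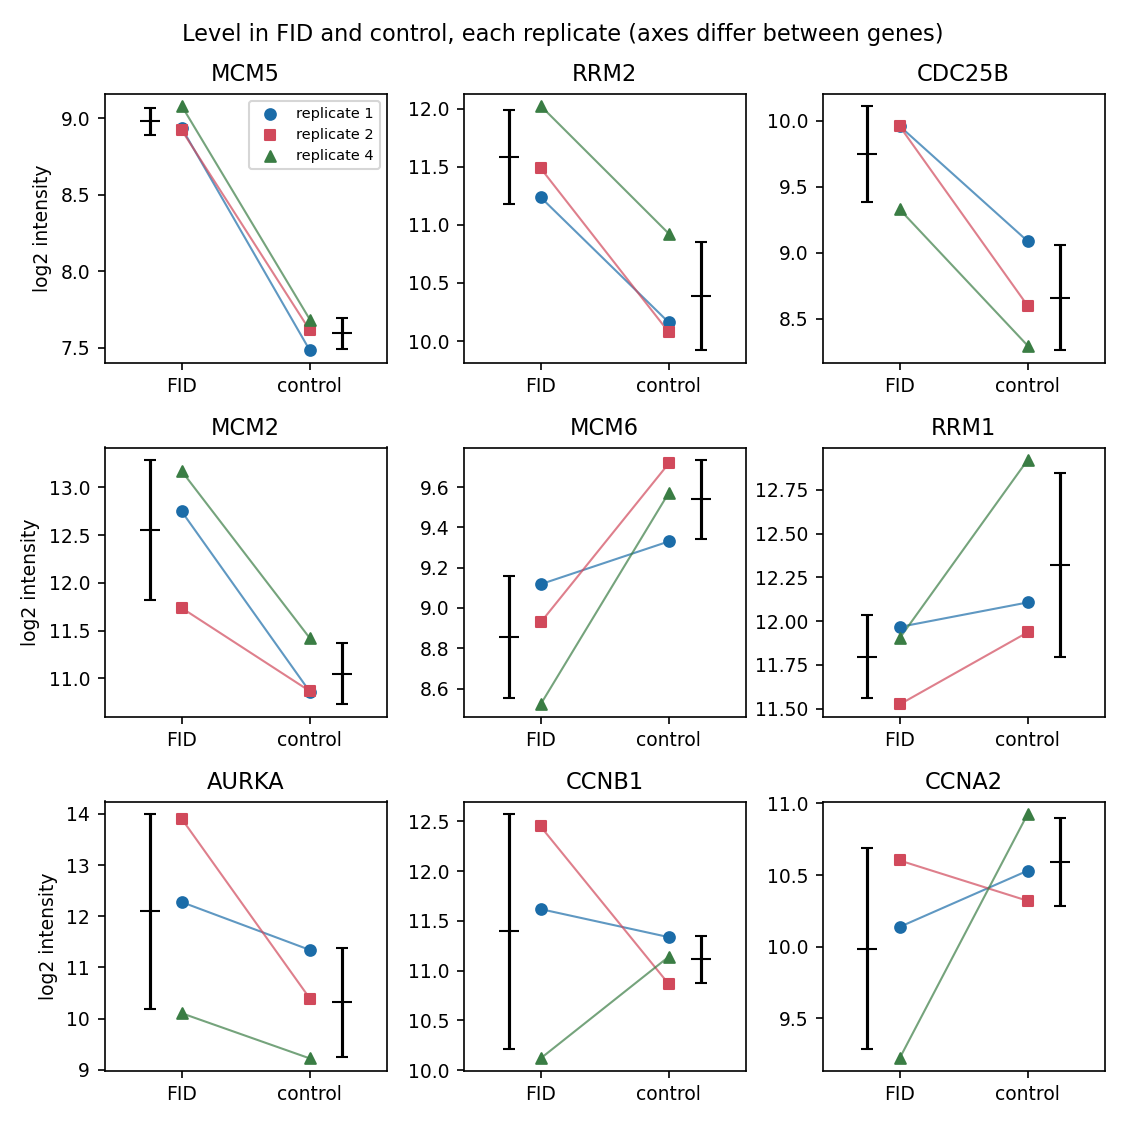
Log2 intensity (y axis, with its own range for each gene) of 9 genes in FID and control cells (x axis). Points are replicates 1, 2 and 4, lines join the conditions of a replicate, and side bars give the mean ± SD (n = 3). MCM5, RRM2, CDC25B and MCM2 are higher and MCM6 is lower in FID with no overlap, whereas the lines of CCNB1 and CCNA2 cross. The share of all tested genes with no overlap was not counted.

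Of the genes of G1 entry, 0 of 6 passed limma's test, with 1 higher and 0 lower at an unadjusted p under 0.05. E2F1, the transcription factor that opens the S-phase programme, was that gene. It had log2 intensities of 8.97, 10.01 and 10.29 in FID, against 8.23, 8.91 and 10.02 in control. FID was higher within every replicate, but control cells of replicate 4 lay at the level of FID cells of replicate 2, so the groups overlapped. Its ratio was 0.71 ± 0.19 (adjusted p = 0.140) and was positive on 6 of 6 arrays.

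CCND2, the D-type cyclin of granulosa cells, had log2 intensities of 15.00, 14.70 and 14.90 in FID, against 14.95, 14.46 and 14.29 in control. The ranges overlapped, and the ratio was 0.30 ± 0.14 (adjusted p = 0.318). CCND3, another D-type cyclin, had 8.16, 7.92 and 7.99 in FID, against 8.01, 7.67 and 8.09 in control, a ratio of 0.10 ± 0.11. Neither D-type cyclin passed the test.

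The E-type cyclins lay on both sides of 0. CCNE1 had log2 intensities of 8.46, 8.55 and 8.65 in FID, against 8.65, 8.21 and 8.20 in control, and a ratio of 0.20 ± 0.16 (adjusted p = 0.570). CCNE2 had 7.48, 7.42 and 7.81 in FID, against 7.58, 7.41 and 8.46 in control, and a ratio of -0.25 ± 0.17 (adjusted p = 0.477). Both overlapped between conditions, and the CCNE2 ratio lay mostly in replicate 4. CDK2, the kinase that E-type cyclins activate, had 8.45, 8.0 and 7.92 in FID, against 8.18, 8.26 and 8.0 in control, for a ratio of -0.03 ± 0.14. Its 3 probes were all negative, from -0.37 to -0.03.

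Of the mitotic genes, 0 of 19 passed limma's test, with 2 higher and 1 lower at an unadjusted p under 0.05. CDC25B, the phosphatase that removes inhibitory phosphates from CDK1, came nearest. It had log2 intensities of 9.96, 9.96 and 9.33 in FID, against 9.09, 8.60 and 8.30 in control. The conditions did not overlap, and the ratios, averaged over dye-swapped arrays, were 0.87, 1.36 and 1.03. Single arrays gave 1.24, 1.75 and 1.29 with FID in Cy5 and 0.51, 0.98 and 0.77 with FID in Cy3. The fitted ratio of CDC25B was 1.09 ± 0.13 (adjusted p = 0.054 in limma), on the brightest of 3 probes. The others, above background on 5 and 3 of 6 arrays in FID, gave 0.05 and -0.08.

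AURKA, the Aurora kinase of centrosomes and spindle poles, had the highest fitted ratio of the 39 genes. Its log2 intensities were 12.28, 13.91 and 10.11 in FID, against 11.34, 10.39 and 9.22 in control. FID exceeded control in each replicate, but the replicates differed so much in level that the groups overlapped. The ratios were 0.94, 3.51 and 0.88, for a fitted 1.78 ± 0.63 (adjusted p = 0.213), and the ratio was 0.91 without replicate 2. NUSAP1, which bundles spindle microtubules, had 12.21, 12.91 and 10.95 in FID, against 11.28, 10.71 and 11.24 in control. It was above control in replicates 1 and 2 and below in replicate 4, with a ratio of 0.94 ± 0.52 that became 0.32 without replicate 2.

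The ratios of the cyclins of G2 and mitosis lay on both sides of 0 among replicates. CCNB1, a regulatory partner of CDK1, had log2 intensities of 11.62, 12.45 and 10.12 in FID, against 11.34, 10.87 and 11.14 in control. It was 1.58 above control in replicate 2 and 1.02 below in replicate 4, and the fitted ratio of 0.28 ± 0.55 turned to -0.37 without replicate 2. CCNB2, the other mitotic B-type cyclin, had ratios of 0.20, 1.12 and -0.30. CCNA2, the cyclin of S phase and G2, had 10.14, 10.60 and 9.22 in FID, against 10.53, 10.32 and 10.93 in control. Its ratios were -0.39, 0.28 and -1.71 (fitted -0.61 ± 0.43, adjusted p = 0.498), and the ratio without replicate 4 was -0.056.

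CDK1, the mitotic kinase itself, had log2 intensities of 8.47, 8.52 and 7.93 in FID, against 8.73, 9.01 and 8.88 in control. All FID values lay below all control values. Its ratio of -0.57 ± 0.17 (adjusted p = 0.157) was -0.96 on arrays with FID in Cy3, where it passed, and -0.19 with FID in Cy5. TOP2A, which decatenates sister chromatids, had 7.30, 6.79 and 7.05 in FID, against 7.32, 7.45 and 7.79 in control. FID was lower, with the values of replicate 1 nearly equal, and the ratio was -0.47 ± 0.18 (adjusted p = 0.247).

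The remaining mitotic genes spread around 0. The Polo kinase PLK1 had 0.38 ± 0.12 (adjusted p = 0.174) and was the other gene higher at an unadjusted p under 0.05, but gave -0.058 on arrays with FID in Cy3. The kinesins KIF11 and KIF20A, which act in spindle bipolarity and cytokinesis, had 0.66 ± 0.27 and -0.35 ± 0.18. CENPF, a kinetochore protein, had 0.62 ± 0.35 with ratios of 0.56, 1.47 and -0.17. The checkpoint kinase BUB1 had 0.20 ± 0.21 and its relative BUB1B -0.33 ± 0.25. CDC20, which activates the anaphase-promoting complex, had 0.12 ± 0.13. MKI67, the common proliferation marker, had -0.03 ± 0.11 and TPX2, which activates AURKA on the spindle, -0.07 ± 0.10.

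The chromosomal passenger proteins AURKB and BIRC5 each had probes of both signs. AURKB, the kinase of that complex, had log2 intensities of 11.40, 11.26 and 9.81 in FID, against 11.14, 11.06 and 10.59 in control, and its 3 probes ranged from -0.11 to 0.08. BIRC5 had 9.84, 9.12 and 9.62 in FID, against 9.98, 9.66 and 9.48 in control, and its probes gave -0.18 and 0.27. The conditions overlapped for both genes. Over the 11 genes with 2 or more tested probes, 5 had probes of both signs (AURKB, BIRC5, CDC25B, MCM2 and TYMS).

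**Figure D3:**
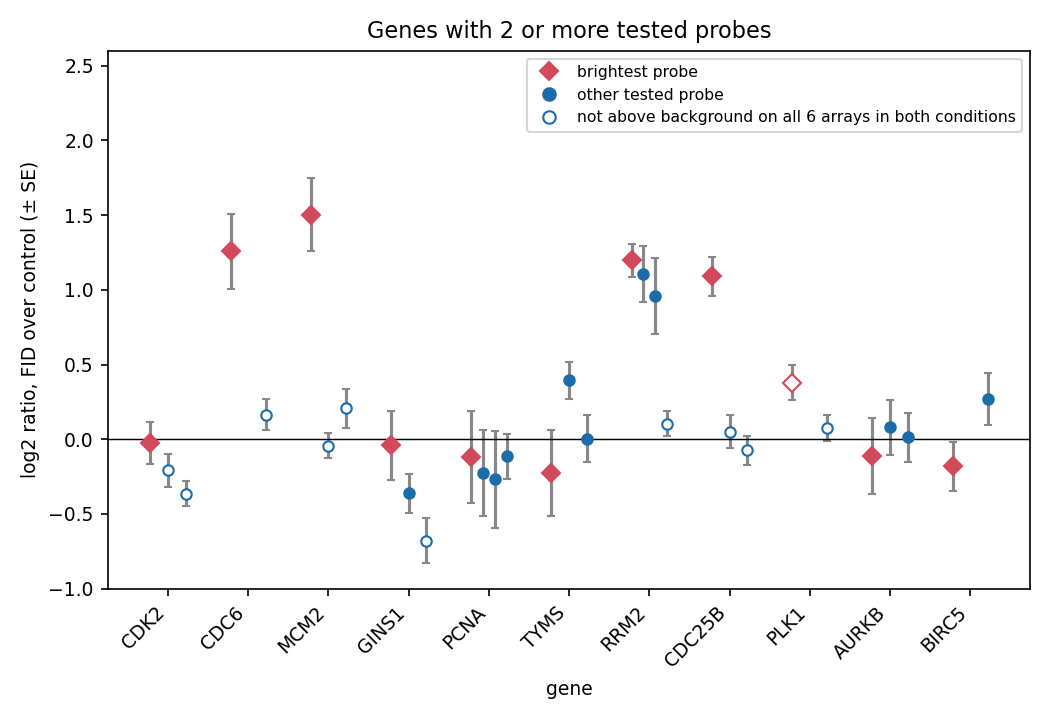
Fitted log2 ratio of FID over control ± SE (y axis, n = 3 replicates) of every tested probe of the 11 genes with 2 or more tested probes (x axis). Diamonds are the brightest probe and circles the others, open where the probe was not above background on all 6 arrays in both conditions. For CDC6, MCM2 and CDC25B the brightest probe lies above 1 and every other probe is open and near 0, whereas 3 of the 4 RRM2 probes lie near 1.

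The 3 groups of genes were set side by side within each replicate. Genes of G1 entry had median ratios of 0.10, 0.24 and 0.10 in replicates 1, 2 and 4. Replication genes had 0.33, 0.66 and -0.15, and mitotic genes 0.17, 0.19 and -0.20. Over all tested genes the medians were -0.01, -0.007 and 0.006. Replicate 4 was thus the lowest for replication and mitosis, with 7 of 14 and 7 of 19 genes above 0, against 10 of 14 and 13 of 19 in replicate 2. Without replicate 2 the median over the remaining replicates was -0.051 for mitosis and 0.13 for replication, against 0.12 and 0.31 with all 3.

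The sign was the same in 3 of 3 replicates for 10 of 14 replication genes, for 6 of 19 mitotic genes and for 49.9% of all genes. A ratio highest in replicate 2 and lowest in replicate 4, an order picked out after the values were seen, occurred for 9 of 19 mitotic genes, 4 of 14 replication genes and 3 of 6 genes of G1 entry. Over all 39 it occurred for 16, or 41.0%, against 15.6% of all tested genes. The replicates' ratios spanned more than 1 log2 unit for 16 of 39 genes, among them AURKA, CCNB1, NUSAP1, UHRF1 and CCNA2, against 21.5% of all genes. For mitotic genes the spread among replicates lay more in FID, where the SD of log2 intensity had a median of 0.42, against 0.26 in control, and was larger in FID for 15 of 19. Over all tested genes these medians were 0.21 in FID and 0.20 in control, and the SD was larger in FID for 52.0%. It was larger in FID for 9 of 14 replication genes and for 1 of 6 genes of G1 entry.

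Most oocyte markers also had this order of replicates. Their median ratio was 0.64, 1.92 and 0.07 in replicates 1, 2 and 4, and 21 of 26 were highest in replicate 2 and lowest in replicate 4. In replicate 4 several of these markers lay near background in both conditions, where a ratio is drawn towards 0. The mitotic genes, by contrast, had a median of -0.20 there. The part of oocyte transcripts in the values of AURKA, NUSAP1, the B-type cyclins and UHRF1 was not tested.

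**Figure D4:**
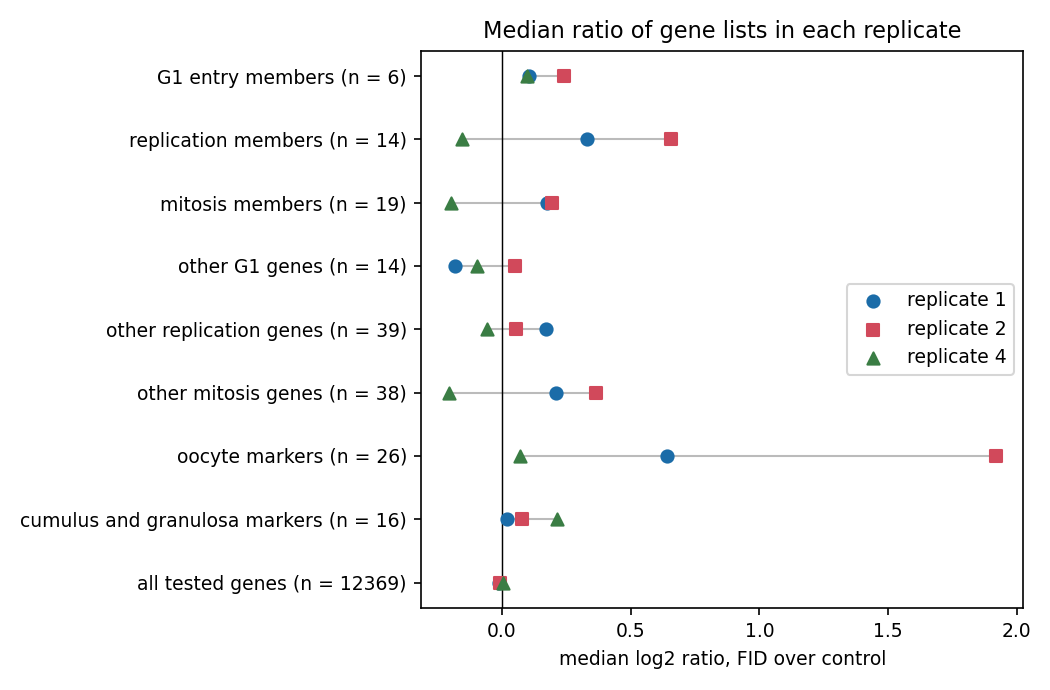
Median log2 ratio of FID over control (x axis) of each list of genes (y axis, with the number of tested genes) in replicates 1, 2 and 4. Oocyte markers have medians of 0.64, 1.92 and 0.07, and both groups of mitotic genes lie below 0 in replicate 4 and above 0 in replicates 1 and 2.

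The other genes of these pathways, 105 in lists of the G1, replication and mitosis machinery, gave 91 tested genes. Of these 1 passed limma's test as higher and 0 as lower, with 14 higher and 6 lower at an unadjusted p under 0.05, where 12.5% and 16.1% of all genes were. The median was 0.06. The gene that rose was SLBP, which binds the stem-loop of replication-dependent histone mRNAs. It had log2 intensities of 10.22, 10.13 and 10.23 in FID, against 9.06, 8.85 and 9.26 in control, with no overlap, and rose by 1.14 ± 0.10, or 2.20-fold (adjusted p = 0.0476). Without any 1 replicate it no longer passed.

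In the G1 list, 0 of 14 passed (median -0.09). TFDP1, the dimerisation partner of E2F factors, had -1.06 ± 0.15 (adjusted p = 0.060) with ratios of -1.24, -1.21 and -0.72, and RBL2, a pocket protein that represses E2F targets, had -0.82 ± 0.32. At the other end CKS1B, a subunit of cyclin-dependent kinase complexes, had 0.87 ± 0.45 and E2F5, a repressive E2F, 0.63 ± 0.27. TFDP1 thus lay below control while E2F1 lay above it.

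In the replication list, 1 of 39 passed (median 0.05). LIG1, which joins Okazaki fragments, had ratios of 0.94, 3.35 and 1.67 (fitted 1.99 ± 0.52, adjusted p = 0.134), highest in replicate 2 like AURKA. ORC2, of the origin recognition complex, had -0.99 ± 0.21 on its brightest probe (adjusted p = 0.097), and its other 2 probes gave 0.01 and 0.12. RFC3, of the clamp loader, had -0.82 ± 0.21.

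In the mitosis list, 0 of 38 passed (median 0.12, with 0.21, 0.37 and -0.21 in replicates 1, 2 and 4). PRC1, which cross-links microtubules at the midzone, had 1.18 ± 0.20 (adjusted p = 0.074) and ASPM, a spindle pole protein, 1.10 ± 0.19 (adjusted p = 0.078). Both were positive in every replicate. MAD2L1, the spindle checkpoint protein, had -0.64 ± 0.34, with its probes giving -0.64 and -0.61, and SPC24, of the kinetochore, -0.55 ± 0.17. The order with replicate 2 highest and replicate 4 lowest occurred for 16 of 38 of these genes.

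The number of calls depended on the setting. In a joint limma fit of the 6 arrays, with a random block for replicate and a term for dye, 8 of the 39 genes passed as higher (AURKA, CDC25B, CDC6, CDT1, E2F1, MCM2, MCM5 and RRM2), as 8.84% of all genes did, and 1, MCM6, as lower, as 11.9% did. With the median in place of the mean spot intensity, 4 passed as higher, against 2.73% of all genes, and 0 as lower, against 3.45%, where 4 were lower at an unadjusted p under 0.05 in limma. Without any 1 replicate 0 of the 39 passed in limma, with 7, 8 and 12 higher and 4, 0 and 1 lower at an unadjusted p under 0.05 without replicates 1, 2 and 4. The share of all genes under that unadjusted p was not counted in these settings, so such counts only describe the values. Without replicates 1, 2 and 4 MCM5 had ratios of 1.35, 1.43 and 1.38 (adjusted p = 0.133, 0.249 and 0.116 in limma). RRM2 had 1.26, 1.09 and 1.25 (adjusted p = 0.135, 0.249 and 0.116). MCM5 ranged from 1.15 to 1.57 over the 18 alternatives, where its adjusted p lay between 0.0044 and 0.249, and RRM2 from 0.70 to 1.70, with adjusted p between 0.0020 and 0.249.

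**Figure D5:**
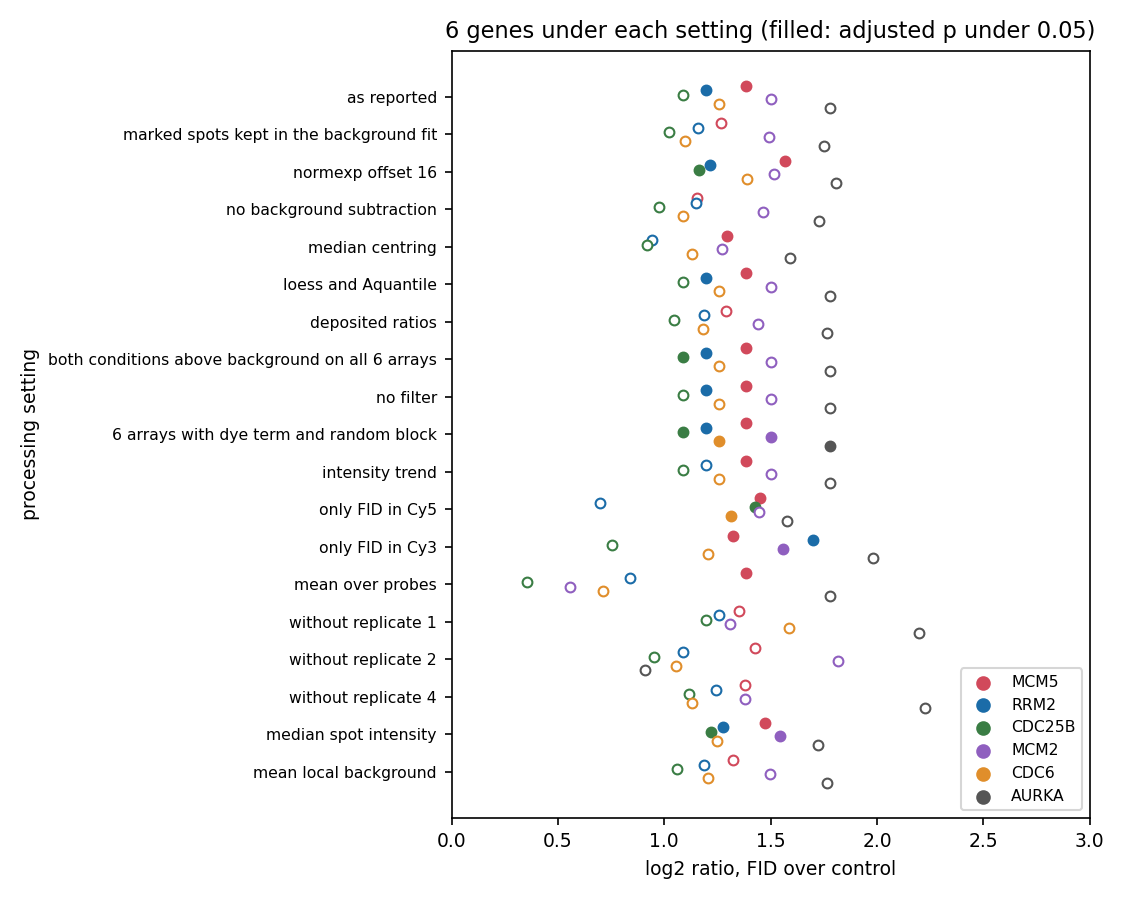
Log2 ratio of FID over control (x axis) of MCM5, RRM2, CDC25B, MCM2, CDC6 and AURKA under the reported setting and 18 alternatives (y axis). Filled points have an adjusted p under 0.05. MCM5 stays between 1.15 and 1.57, CDC25B is at 0.36 when all probes of a gene are averaged, and AURKA is at 0.91 without replicate 2.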

How the data were processed

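Per the file headers, the deposited scanner files give raw spot intensity and local background for Cy3 and Cy5, and the authors also deposited log2 ratios, whose steps are not given in the sources used here. Per array, Pearson's r over probes between these and the present ratios was 0.994 to 0.998. Spots marked as ignored (13 to 88 per array) were left out, background was corrected with normexp (offset 50), and loess was run within arrays with limma 3.58.1 in R 4.3.3. Ratios were turned to FID over control and dye-swapped arrays averaged. A probe was tested if above the 95th percentile of the negative controls in 1 condition on at least 4 of 6 arrays (32192 of 43794 probes), and limma's moderated test (2 residual df) was adjusted over these by Benjamini-Hochberg at 0.05. A gene was represented by its brightest tested probe. Levels are log2 intensities after loess and Aquantile. The script was tested on simulated data. Symbols came from the platform annotation, in which 22004 probes have none. Full values are given for genes that passed, for the 3 highest and 3 lowest ratios in each group, and for genes with probes of opposite sign, and other genes are summarised, except CDT1, UHRF1 and CCNB1, given in full after their values were seen. Of the other pathway genes, those that passed and the 2 highest and 2 lowest per list are named. Genes and lists were chosen with earlier results of these data known. The replicates are labelled as biological, their animals are not given, and 3 replicates limit the precision.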

Additional observations from a re-analysis of the deposited data

How the results depend on the processing

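Of 18 alternatives, 2 (median spot intensity and mean local background) were added after seeing the data. Aquantile, the filter settings, the intensity trend and the block cannot move the ratio of a probe measured on 6 of 6 arrays. An unchanged ratio or sign in those settings was fixed in advance. The count of listed genes higher in FID (2 as reported) was 0 with marked spots kept in the background fit, without background subtraction, with the deposited ratios, with mean local background and without any 1 replicate. It was 1 with median centring (0.905% of all genes), an intensity trend (2.18%) or the mean over probes (0.905%), and 3 with an offset of 16 (1.86%), both conditions above background on all arrays (2.99%) or only FID in Cy5 (2.85%). It was 4 with only FID in Cy3 (4.08%) or median spot intensity (2.73%), and 8 with the random replicate block (8.84%). The count lower (0) was 1 with the block (11.9%) and with only FID in Cy3 (5.13%). The count of other pathway genes (1 as reported) is given with the percent of all genes that passed in either direction (2.35% as reported). It was 0 with marked spots kept, the deposited ratios, an intensity trend (5.33%) or mean local background. It was also 0 without background subtraction or without any 1 replicate. It was 2 with no filter (1.97%) or with both conditions above background on all arrays (6.39%). It was 4 with only FID in Cy5 (6.45%) or median spot intensity (6.18%). With only FID in Cy3 it was 6 (9.22%), and with the block 14 (20.7%). With median centring it was 1 (2.83%), but TFDP1, lower, in place of SLBP. In limma the smallest adjusted p over all probes was 0.0506 to 0.249 in settings with 0 calls, and marked spots kept in the fit then left 8 listed genes higher and 2 lower at an unadjusted p under 0.05. The share of all genes under that unadjusted p was not counted there. Median centring gave 112 genes higher and 238 lower, against 131 and 160 as reported, and median spot intensity gave 341 and 431. The median of G1 entry (0.15) was -0.046 with only FID in Cy5 and 0.11 to 0.23 when 1 replicate was left out, the last without replicate 1. The median of replication (0.31) lay between 0.091 and 0.42 over the alternatives and that of mitosis (0.12) between -0.051, without replicate 2, and 0.16. The cause of these moves was not tested.

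Ratios of uncalled genes changed sign as follows. With median centring MCM4 had -0.058, CDC20 -0.099, MKI67 0.035 and BUB1 -0.026. With the deposited ratios CDK2 had 0.00056. With only FID in Cy5 CCND3 had -0.13, CCNE1 -0.067, CDC20 -0.054 and BIRC5 0.014. With only FID in Cy3 GINS1 had 0.10, PCNA 0.043, PLK1 -0.058, AURKB 0.13, MKI67 0.085, BUB1 -0.15 and TPX2 0.018. With the mean over probes TYMS had 0.057 and BIRC5 0.044. When 1 replicate was left out at a time, the ratio ranged from -0.17 to 0.095 for CDK2, -0.25 to 0.43 for MCM4, -0.34 to 0.13 for GINS1, -0.35 to 0.29 for PCNA, -0.51 to 0.14 for TYMS, -0.37 to 0.93 for CCNB1, -0.051 to 0.66 for CCNB2, -0.015 to 0.20 for CDC20, -0.29 to 0.22 for AURKB and -0.10 to 0.068 for MKI67.

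The reported test is itself paired, since each array holds FID and control of 1 replicate. Signal over background limits CCND1 and the dim other probes of MCM2, CDC6 and CDC25B. It also limits TOP2A, TPX2, PLK1 and MKI67, whose brightest probes had mean log2 intensities of 7.28, 7.38, 7.18 and 7.34. The other MCM2 probes had 7.24 and 7.22.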
